A study of Mus musculus with 4 samples.

Results

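The regions described here are the ATAC-seq peaks of 44 megabase windows of mouse chromosomes 1 to 19 in which peaks were called far more densely than in the other windows. Each peak of the 4 deposited lists was assigned to the 1 Mb window that holds its start, and a window was kept when it held 300 or more peaks in every list. The windows were thus chosen by the measured number of peaks, and how that number and the spacing that follows from it compare with the rest of the genome is given as a description, with no test. Of the 2381 windows with a peak, 44 (1.85%) were kept. WT replicate 1 contributed 19555 peaks to them and replicate 2 contributed 22060, while the Il2ra mut/mut replicates contributed 20708 and 21842. The members are thus 84165 of the 504838 peaks listed in all. These lists did not pass the filter by which the paper kept peaks reproducible among replicates.

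The libraries were made from Foxp3+ CD4+ regulatory T (Treg) cells, sorted as RFP+ cells from the lymph nodes (LNs) of naive, unstimulated female Foxp3 Rfp/Rfp reporter mice on the C57BL/6 background, aged 6 to 8 weeks. WT mice were compared with Il2ra mut/mut mice, which are homozygous for a mutation of CD25, the alpha chain of the interleukin 2 (IL-2) receptor, and whose Treg cells receive reduced IL-2 signals. There were 2 libraries per genotype, of 50000 cells each, and the RFP reporter and the sort were shared by both genotypes. The question of the study that these lists address is whether weaker IL-2 signals alter the open chromatin of Treg cells.

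In ATAC-seq, a transposase inserts sequencing adapters into DNA that is not wrapped tightly in nucleosomes, and its reads collect over open chromatin, where a peak caller marks each pile-up that stands above the background. In a lymphocyte, the tallest pile-ups lie at promoters of expressed genes, at enhancers and at sites bound by CTCF, the factor that anchors chromatin loops. Long stretches of a chromosome can share a chromatin state, with active, gene-rich domains on one side and silent domains around developmental or neuronal genes on the other.

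For the sequences below, the region of each window that was called in all 4 libraries and ranked highest by fold enrichment was taken. The 150 bases around the median of its 4 summits were read from the plus strand of the RefSeq genome (GRCm38). The first 4 are the leading regions of windows along long genes or gene-poor DNA, and the last 4 are promoters, which were the tallest peaks in such windows. They are shown because they differ in the capital letters, which mark GGGCGG or its reverse complement, the core of the site bound by SP and KLF factors.
Cadm1 window, intergenic, chr9:47411949-47412098: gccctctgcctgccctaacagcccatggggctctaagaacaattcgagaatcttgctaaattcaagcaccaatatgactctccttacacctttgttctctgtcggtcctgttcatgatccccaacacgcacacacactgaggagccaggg
Asic2 intron, chr11:81613309-81613458: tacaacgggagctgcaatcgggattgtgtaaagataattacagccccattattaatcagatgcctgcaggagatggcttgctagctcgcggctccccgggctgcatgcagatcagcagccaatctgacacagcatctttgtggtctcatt
Plxna4 intron, chr6:32402972-32403121: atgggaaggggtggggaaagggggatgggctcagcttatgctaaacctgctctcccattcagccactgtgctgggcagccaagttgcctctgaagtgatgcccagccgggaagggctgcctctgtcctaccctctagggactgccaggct
Lrmda intron, chr14:22183375-22183524: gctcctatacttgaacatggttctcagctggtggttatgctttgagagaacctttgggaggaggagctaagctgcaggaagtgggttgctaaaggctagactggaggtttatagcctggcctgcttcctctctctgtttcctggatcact
Sh3bp4 promoter, chr1:89070145-89070294: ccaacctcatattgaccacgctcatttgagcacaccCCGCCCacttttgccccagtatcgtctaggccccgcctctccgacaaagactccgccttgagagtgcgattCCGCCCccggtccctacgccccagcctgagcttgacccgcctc
Mgmt promoter, chr7:136894380-136894529: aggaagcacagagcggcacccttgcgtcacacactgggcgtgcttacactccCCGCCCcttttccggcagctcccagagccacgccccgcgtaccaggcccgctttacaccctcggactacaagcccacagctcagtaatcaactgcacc
Crnde promoter, chr8:92356126-92356275: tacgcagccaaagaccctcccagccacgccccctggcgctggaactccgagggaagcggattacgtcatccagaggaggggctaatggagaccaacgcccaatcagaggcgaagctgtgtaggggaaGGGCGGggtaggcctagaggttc
Zc3h12a promoter, chr4:125127835-125127984: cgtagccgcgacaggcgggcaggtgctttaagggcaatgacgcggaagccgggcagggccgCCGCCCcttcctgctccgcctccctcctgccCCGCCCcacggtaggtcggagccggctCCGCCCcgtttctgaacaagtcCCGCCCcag
The 4 promoter sequences shown hold the capital letters 1 to 4 times each, and the other 4 hold them nowhere. Sequences were read for the leading regions of 43 windows, and 9 of 15 at promoters, 1 of 14 in introns and 0 of 13 between genes held these letters, so that the sequences shown are not the rule for every promoter. The Zc3h12a promoter was picked after its values were seen.

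The windows lay on 15 of the 19 chromosomes. Chromosome 5 had 6 of them, chromosomes 4, 7, 8, 11 and 14 had 4 each, and chromosomes 3, 10, 13 and 19 had none. Of all peaks on chromosomes 1 to 19, they took up 17.6% in each WT library, and 17.1% and 15.5% in the mutant replicates 1 and 2. For comparison, the median window of all 2381 held between 29 and 37 peaks in a library. Peaks covered between 14.8% and 18.5% of the bases of the dense windows and between 1.51% and 1.86% of the bases of the rest.

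At the threshold, the last windows inside were those of Rbfox1 (chr16:6000001-7000000) with 306, 374, 444 and 404 peaks, of Cacna2d3 (chr14:29000001-30000000) with 304, 371, 343 and 315 peaks, and of Grin2a (chr16:9000001-10000000) with 327, 304, 353 and 443, given for WT replicate 1, WT replicate 2 and then the mutant replicates 1 and 2, an order kept for every set of 4 values. The first windows outside were chr5:131000001-132000000 with 310, 392, 279 and 281 peaks, chr9:46000001-47000000 with 279, 405, 392 and 421, and chr7:36000001-37000000 with 277, 321, 332 and 403. In 74 windows, at least 1 library reached 300 peaks, and 30 of these failed in 1 or more of the others. The choice also depended on how low a peak was allowed to be: 6 of the 44 windows reached 300 in every library when the −log10 q had to reach 3, and 26 did so when every list was shortened to the same number of peaks.

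**Figure D1:**
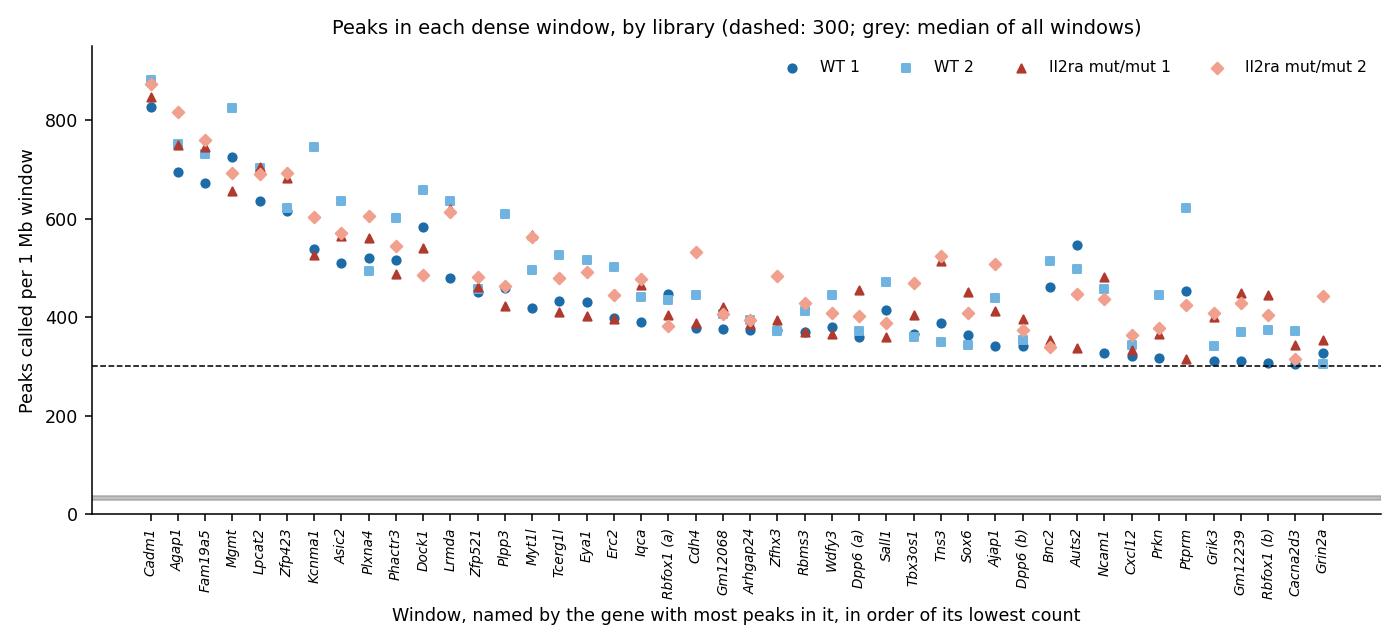
Number of peaks called in each of the 44 dense windows (vertical axis, peaks per 1 Mb) in each library, with the windows in order of their lowest count and named by the gene that holds most of their peaks (2 windows each for Dpp6 and Rbfox1, marked a and b). Each point is 1 library, the dashed line is the threshold of 300, and the grey band shows the library medians over all 2381 windows, 29 to 37 peaks. The counts fall from 827 to 880 in the Cadm1 window to 304 to 443 in the Grin2a window, all above the grey band.

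The densest window of every library was chr9:47000001-48000000, with 827, 880, 847 and 873 peaks. Cadm1, a cell adhesion molecule of the immunoglobulin superfamily, lies in it (chr9:47530173-47857637, plus strand) and overlapped 288, 298, 290 and 281 of these peaks. The lincRNAs Gm31816 and Gm31698 upstream of it overlapped 125, 122, 123 and 120 peaks and 100, 111, 108 and 111 peaks. The 100 kb bins of the window were nearly even: the fullest, the fourth, had 98, 98, 101 and 101 peaks, and the emptiest, the second, had 68, 79, 75 and 78. The median distance between the starts of neighbouring peaks was 924, 915, 960 and 946.5 bp. Its leading region was low: between genes and 42.3 kb from the nearest transcription start site (TSS), it had 12, 12, 15 and 12 reads at its summit.

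The second window, chr1:89000001-90000000, had 695, 751, 750 and 817 peaks. Most lay in Agap1 (chr1:89454806-89897617, plus strand), a GTPase-activating protein for ARF proteins of membrane traffic, with 456, 458, 443 and 463 peaks, followed by Asb18 with 53, 49, 46 and 49 and the lincRNA C030007H22Rik with 27, 37, 39 and 46. Its profile rose from 9, 13, 19 and 26 peaks in the first bin to 98, 96, 112 and 113 in the seventh. The tallest peak was in the emptiest bin. It covered the promoter of Sh3bp4, an endocytic adaptor, with 92, 102, 117 and 101 reads at its summit.

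Around Fam19a5, a small secreted protein of the nervous system, chr15:87000001-88000000 held 673, 731, 746 and 759 peaks. Fam19a5 (chr15:87544299-87759364, plus strand) was the only protein-coding gene in the window and overlapped 185, 180, 200 and 205 of them, and the lincRNAs Gm49470 and Gm49472 overlapped 23 to 29 and 10 to 19. All 10 bins were full, with 87, 84, 91 and 95 peaks in the seventh and 53, 61, 75 and 59 in the ninth. The leading region lay between genes and had 18, 19, 23 and 16 reads.

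The window chr7:136000001-137000000 had 724, 824, 656 and 692 peaks, most of them between genes (77.8% on average). Its protein-coding gene, Mgmt (chr7:136894614-137130266, plus strand), repairs alkylated guanine in DNA and overlapped 55, 56, 42 and 65 peaks. The lincRNAs C030029H02Rik and Gm6249 overlapped 47, 47, 46 and 40 peaks and 29, 33, 21 and 28 peaks. The Mgmt promoter was among the tallest members of all, with 98, 123, 154 and 134 reads, in a window where the median peak had 8 to 10. The bins ranged from 87, 103, 90 and 82 peaks in the third to 50, 53, 40 and 63 in the tenth.

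On chromosome 8, chr8:92000001-93000000 held 635, 702, 705 and 691 peaks and chr8:87000001-88000000 held 616, 622, 682 and 692. The first held Lpcat2, an acyltransferase of lipid metabolism, with 48, 52, 43 and 35 peaks, Slc6a2, the noradrenaline transporter, with 41, 36, 33 and 29, and Mmp2, a matrix metalloproteinase, with 23, 31, 22 and 27. Lpcat2 (chr8:92855339-92919279, plus strand) reached into its fullest bin, the ninth, which had 81, 99, 78 and 74 peaks, against 49, 43, 56 and 59 in the fourth. In that emptiest bin stood its tallest region, the promoter of the non-coding RNA gene Crnde, with 53, 72, 70 and 82 reads. The other window was led by Zfp423 (chr8:87661810-87959595, minus strand), a zinc-finger transcription factor, with 209, 249, 244 and 260 peaks, and by the lincRNAs Gm27169 and Gm2694 with 50 to 63 and 53 to 59. Its bins rose from 8, 3, 17 and 17 peaks in the first to 94, 92, 96 and 113 in the eighth, inside Zfp423. Its leading region lay between genes and had 18, 14, 14 and 16 reads.

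A pair of neighbouring windows on chromosome 14 held the longest dense stretch. In chr14:22000001-23000000, which had 480, 635, 619 and 614 peaks, 480, 635, 617 and 612 of these overlapped Lrmda (chr14:22019712-23056085, plus strand), a gene for a leucine-rich protein of melanocytes. The antisense gene 4930405A10Rik overlapped 25 to 36 of them and the intronic gene Gm47601 between 1 and 6. In chr14:23000001-24000000, with 538, 745, 526 and 603 peaks, Kcnma1 (chr14:23289431-24014491, minus strand), the BK potassium channel, overlapped 422, 566, 433 and 484, ahead of the antisense gene Gm10248 with 20 to 47 and the end of Lrmda with 18 to 36. The fullest bins had 83, 90, 86 and 88 peaks (the fifth of the Lrmda window) and 83, 90, 76 and 95 (the tenth of the Kcnma1 window), and the emptiest 13, 16, 27 and 26 (the first) and 43, 52, 28 and 46 (the second). Their leading regions were intronic, with 23, 28, 26 and 27 reads in Lrmda and 16, 17, 25 and 18 in Kcnma1. WT replicate 2 had the highest count in both windows. Per 100000 peaks of its library it was highest in the Kcnma1 window only, with 595. In the Lrmda window it had 507, against 510 in the mutant replicate 1. The stretch chr14:22100001-24300000, in which every 100 kb bin held 20 or more peaks in every library, was 2.2 Mb long and held 1160, 1565, 1304 and 1405 peaks.

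A single long gene of the nervous system held most peaks of 2 further windows of the 12. In chr11:81000001-82000000, with 510, 635, 564 and 570 peaks, 504, 626, 561 and 560 overlapped Asic2 (chr11:80880169-81968457, minus strand), an acid-sensing ion channel, while 5530401A14Rik and the antisense gene 4930527B05Rik overlapped 5 to 15 and 8 to 13. In chr6:32000001-33000000, with 520, 493, 560 and 605 peaks, Plxna4 (chr6:32144268-32588192, minus strand), a semaphorin receptor of growing axons, overlapped 360, 376, 393 and 404. Chchd3, a mitochondrial protein expressed in most cells, overlapped 12, 3, 14 and 21 peaks, and the antisense gene Plxna4os3 between 8 and 14. The Asic2 bins fell from 66, 71, 72 and 85 peaks in the third to 21, 32, 26 and 24 in the tenth. Those of the Plxna4 window fell from 85, 75, 89 and 99 in the fourth, inside Plxna4, to 1, 1, 2 and 4 in the tenth, inside Chchd3. The leading regions were low, with 13, 13, 15 and 10 reads in Asic2 and 12, 13, 16 and 11 in Plxna4.

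The remaining 2 of the 12 densest windows were chr2:178000001-179000000, with 515, 601, 488 and 545 peaks, and chr7:134000001-135000000, with 583, 658, 540 and 485. In the former, Phactr3 (chr2:178118975-178338492, plus strand), a regulator of protein phosphatase 1 and actin, overlapped 87, 83, 76 and 101 peaks, Cdh26, a cadherin, 23, 35, 18 and 29, and Sycp2, a protein of the meiotic synaptonemal complex, 10, 12, 4 and 9. Its first bin had 5, 4, 4 and 4 peaks, against 79, 84, 82 and 87 in the eighth. The tallest region was in that first bin, at the promoter of the zinc-finger gene Zfp971, with 24, 51, 51 and 38 reads. In the latter, Dock1 (chr7:134670654-135173639, plus strand), an exchange factor for the GTPase RAC, overlapped 260, 276, 245 and 224 peaks, Adam12, a metalloproteinase, 80, 81, 81 and 55, and D7Ertd443e 63, 73, 50 and 42. Its bins ranged from 24, 38, 31 and 22 peaks in the second to 83, 93, 77 and 73 in the eighth, and its leading region, in an intron of Dock1, had 18, 17, 23 and 24 reads.

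**Figure D2:**
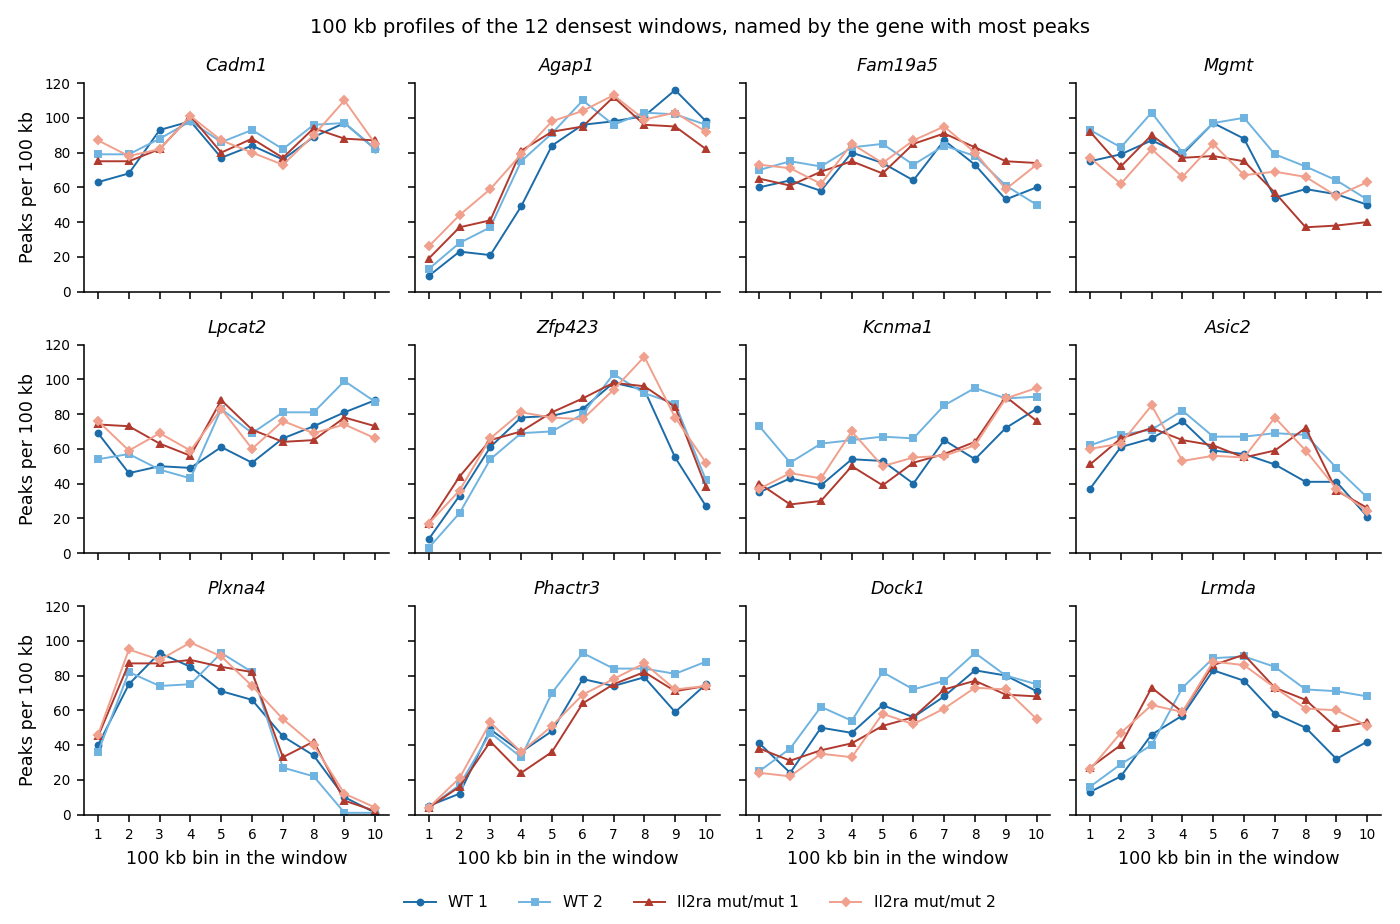
Peaks per 100 kb (vertical axis) along the 10 bins of each of the 12 densest windows (horizontal axis, bin 1 to 10 in the direction of the chromosome's coordinates), 1 line per library. Each panel is named by the gene with most peaks. The lines of the 4 libraries follow each other: the Cadm1, Fam19a5, Mgmt and Lpcat2 panels stay high throughout, while the Agap1, Zfp423 and Phactr3 panels start at 3 to 26 peaks and the Plxna4 panel ends at 1 to 4.

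The other 32 windows had between 304 and 622 peaks in a library. Their median gap averaged between 1004 and 1852 bp over the libraries, against 936 to 1233 bp in the 12 densest. Among the genes with most peaks in them, named here after their values were seen, were Grin2a and Grik3, subunits of glutamate receptors, Cacna2d3, a calcium channel subunit, Ncam1, a neural adhesion molecule, and the developmental transcription factors Myt1l, Sox6, Zfhx3 and Sall1. The Sall1 window (chr8:89000001-90000000) was a gene desert: Sall1, its only protein-coding gene, overlapped 5, 7, 8 and 9 of its 415, 472, 360 and 388 peaks, and 97.0% of its peaks on average were intergenic. At the other end, all 306, 374, 444 and 404 peaks of chr16:6000001-7000000 overlapped Rbfox1, a neuronal splicing factor whose gene is 1526 kb long. On average over the libraries, more than 90% of the peaks were intronic in 7 of the 44 windows, and more than 75% were intergenic in 8.

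Within a window, peaks were unevenly spread. The fullest 100 kb bin averaged between 46.8 and 105 peaks, and the emptiest between 1.25 and 75. Only 4 windows, those of Cadm1, Fam19a5, Mgmt and Lpcat2, had 30 or more peaks in every library in all 10 bins, and 16 windows had a bin with fewer than 10 peaks on average. Bins with 20 or more peaks in every library numbered 867 of the 20088 bins with a peak on chromosomes 1 to 19, and 42.3% of them lay in the dense windows. Where such bins ran on for 1 Mb or more, which they did in 23 places, the run touched a dense window in 21. The libraries shared the profile, with a Pearson's r of 0.862 to 0.919 between pairs of libraries over the 440 bins, which share their windows and base composition, and the same-genotype pairs (0.919 and 0.905) were not set apart from the WT 2 and Il2ra mut/mut 1 pair (0.907).

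The dense windows were poor in genes, and the genes were long. A dense window overlapped a median of 10 genes, 2.5 of them protein-coding, whereas the other windows overlapped a median of 18 genes and 6 protein-coding ones. In 13 windows only 1 protein-coding gene was annotated. The longest gene of a window had a median length of 398 kb, against 197 kb elsewhere, and a gene over 500 kb reached into 16 of the 44 windows (36.4%), against 15.6% of the others. Of the 460 genes annotated there, 110 (23.9%) were lincRNAs, against 10.2% of all genes. Olfactory and vomeronasal receptor genes, which make up 2.73% and 1.10% of all genes, numbered 0 of the 460, and 6 (1.30%) were zinc-finger protein genes, against 0.802% of all. Their DNA was richer in G and C, with a median of 43.9% (40.5% to 49.3%) against 41.6%, and poorer in masked repeats, with 22.3% against 31.8%. Windows next to each other share genes and composition, so these values are given as a description.

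Of the 83 genes of the T cell and cell type lists, 0 lay in a dense window, where 0.63% of all protein-coding genes lay (131 of 20807), so that a list of this size says little. In the same libraries, a peak lay at the TSS of 10 of 10 Treg genes and 8 of 8 T cell genes in every library, of 49 of 50 T cell factors and signalling genes, of 1 of 2 CD8 T cell genes, of 1 or 2 of 6 B cell genes, of 0 of 2 NK cell genes and of 0 or 1 of 5 myeloid genes. The defining genes of the labelled cell type thus had peaks. Protein-coding genes with a TSS inside the dense windows were not without peaks: 93 of 122 (76.2%) had a peak within 1 kb of the TSS in all 4 libraries, against 53.2% of the 20685 others. Peaks covered 17.0% of the bases of the dense windows against 1.72% elsewhere, and the part of this in the count was not tested.

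The members were low. Every fold enrichment fell on a step that 1 read makes, within 0.05 reads, given a background of 0.974, 0.979, 1.23 and 1.06 reads and 1 added to reads and background, so the reads at each summit could be recovered. The same background of a library fitted members and other peaks alike. Fold enrichment was thus not relative to the surroundings of a peak, and the part of this in the number of peaks was not tested. The median member had 8, 8, 9 and 8 reads. Only 31, 30, 37 and 40 members were among the top 10% of their library by fold enrichment. That is 0.159%, 0.136%, 0.179% and 0.183% of the members, with 95% Wilson intervals from 0.0953% to 0.249% that cover counting error only, against 11.7% to 12.3% of the other peaks. The share was lower by 11.9 ± 0.272 percentage points (SD, n = 4 libraries) and lower in 4 of 4, with p = 0.125 in an exact two-sided sign-flip test over the libraries, the smallest p that 4 libraries allow. The mean percentile of the fold enrichment was 42.1 ± 1.84 in the dense windows and 51.6 ± 0.472 elsewhere (n = 4, exact p = 0.125). Median percentiles were equal in 3 libraries, and in the mutant replicate 1 the median was 39.4 among members and 55.8 among the others (difference over the libraries −4.11 ± 8.23, exact p = 1). Of 7 such tests of place and height, 6 gave a p of 0.125, or 0.146 after Benjamini-Hochberg adjustment. The windows were chosen by their number of peaks, which is the divisor of the top 10% share and of the mean percentile. The tests of height therefore cannot tell fewer tall peaks from more low ones, and no conclusion is drawn from them.

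Tall peaks were rare among the members. On average 0.145% of the members had more than 30 reads at the summit, against 10.7% of the other peaks, and 0.514% had 16 to 30 reads, against 9.85%. At 8 reads the shares were 23.8% and 17.8%. The same held for peaks of 1 kind of place. Within 1 kb of a TSS, 3.45%, 3.11%, 3.83% and 3.59% of the members were in the top 10%, against 42.2% to 44.5% of the other promoter peaks, and their median was 8, 8, 10 and 8 reads against 19, 23, 24 and 18. Among intronic peaks it was 0.0365% to 0.0874% against 5.46% to 6.18%, and among intergenic ones 0.0569% to 0.0909% against 4.07% to 4.52%. All these shares have the number of peaks as their divisor, so the limit given for the tests of height holds for them too.

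**Figure D3:**
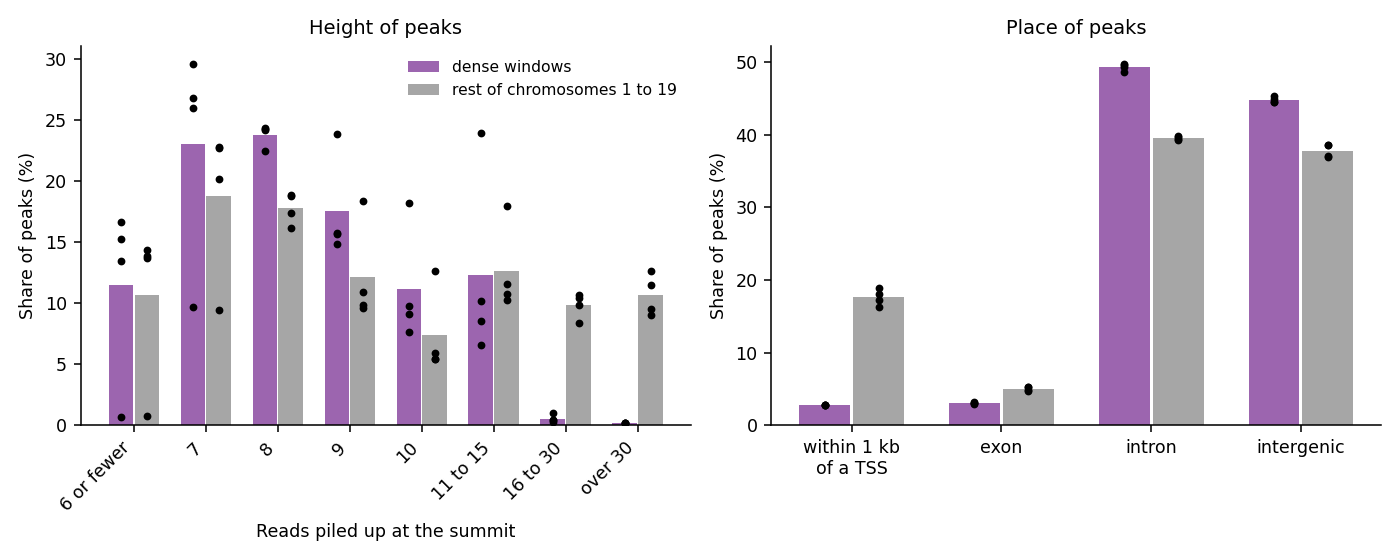
Left, share of peaks (vertical axis, %) by the number of reads at the summit (horizontal axis), in the dense windows and in the rest of chromosomes 1 to 19; right, share of peaks by place. Bars are means of the 4 libraries, which are the points. Peaks of more than 30 reads make up 0.145% of the members and 10.7% of the others, and peaks within 1 kb of a TSS 2.79% and 17.6%.

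Of the few tall members, 19 of 31, 19 of 30, 22 of 37 and 22 of 40 lay within 1 kb of a TSS, and all overlapped a peak in every other library. Among the tallest were the promoters of Selenok, a selenoprotein of the endoplasmic reticulum, with 97, 156, 134 and 152 reads, of Mgmt (above), of Hnrnpf, an RNA-binding protein, with 107, 120, 123 and 124, and of Zc3h12a, the ribonuclease that restrains T cell activation, with 107, 130, 123 and 116. These 3 promoters and the Rbfox1 intron named next were picked after their values were seen. A region in an intron of Rbfox1 (chr16:6959595-6960213) had 68, 77, 106 and 99 reads in a window whose median member had 7 to 9.

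The tall members mostly stood where the other members were sparse, but not always. In the 19 bins of 100 kb with a top 10% peak in every library, the median number of peaks was 8, 9, 7 and 10, whereas it was 46, 53, 46 and 51 in the 403 bins without such a peak in any library. The means of the 19 bins over the libraries ran from 2.25 to 71.75 peaks. Within windows that had both kinds of bin, those with such a peak had fewer peaks in 13 of 16 windows. The median difference was −32.2 peaks, with a range from −65.1 to 33.4. Bins with the TSSs of 2 or more protein-coding genes had a median of 7, 8, 7 and 9 peaks (19 bins), bins with 1 had 41, 51, 42 and 46 (97 bins), and bins with none had 46, 52, 47 and 51.5 (324 bins). Within windows, bins with the TSS of any protein-coding gene had fewer peaks than the others in 27 of 44 windows, with a median difference of only −2.46 peaks. Peak number chose the windows, so no test is given.

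**Figure D4:**
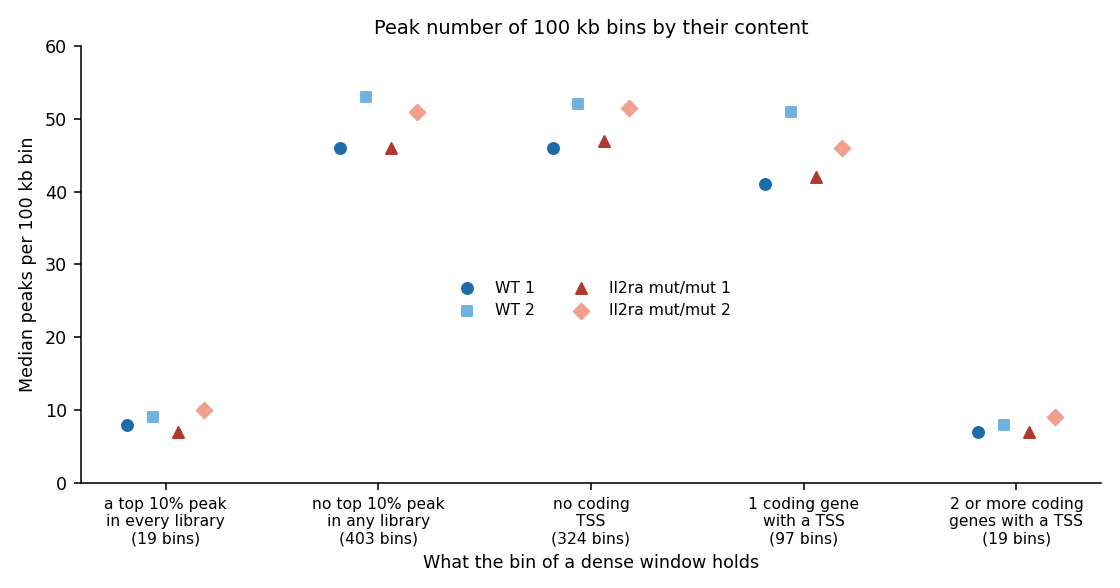
Median number of peaks per 100 kb bin (vertical axis) of the dense windows, by what the bin holds (horizontal axis, with the number of bins), 1 point per library. Bins with a top 10% peak or with 2 or more protein-coding genes sit at 7 to 10 peaks, and the other kinds at 41 to 53.

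The place of the members differed from that of the other peaks. Within 1 kb of a TSS lay 2.82%, 2.77%, 2.78% and 2.80% of the members and 16.3% to 18.9% of the others, a difference of −14.9 ± 1.11 percentage points (SD, n = 4 libraries, lower in 4 of 4, exact two-sided sign-flip p = 0.125, the smallest possible). Introns held 49.3% of the members against 39.5%, and intergenic DNA held 44.8% against 37.8%. Introns and intergenic DNA together held 94.2% against 77.3%, a difference of 16.8 ± 1.17 points (n = 4, higher in 4 of 4, exact p = 0.125). The windows were chosen by their number of peaks, which is the divisor of these shares. The tests therefore cannot tell fewer peaks at TSSs from more peaks elsewhere, and no conclusion is drawn from them. Members within 1 kb of a TSS numbered 551, 610, 575 and 612. Distances to the nearest TSS had a median of 37.1 kb among members and 14.7 kb among the others. Between windows the share at a TSS averaged 0.677% to 5.58%, so that no dense window reached the value of the rest.

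The members were close to each other and about as wide as the other peaks. The median gap was 1317, 1207, 1284 and 1236 bp, against 5936, 5028, 4871 and 4764 bp elsewhere, and the median width was 278, 298, 299 and 289 bp, against 288, 311, 297 and 280 bp. Pooled over windows, the SD of the gaps was 1.57 times their mean, against 2.20 times elsewhere, on average over the libraries. The rest pools windows of very unlike peak number, whereas the rule kept dense ones only. The 2 ratios therefore do not show more even spacing within a window.

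Fewer members were called in every library, but fewer were also called in 1 library alone. A peak in each of the other 3 libraries overlapped 21.1%, 19.2%, 20.4% and 19.4% of the members and 36.6%, 31.6%, 33.6% and 28.4% of the other peaks, by at least 1 bp. No peak in any other library overlapped 20.6%, 22.4%, 20.4% and 21.3% of the members and 32.3%, 34.4%, 34.8% and 40.1% of the others. The dense windows were also covered more densely by peaks (above), and the part of this in both shares was not tested. When the overlap had to reach 50% of the shorter peak, the share in all libraries was lower among members by a wider margin (−19.9 points, against −12.6). Merged across libraries, the members formed 37387 regions, of which 12.5% were called in all 4 libraries and 47.7% in 1. The share in all 4 ranged from 3.51% in chr16:6000001-7000000 to 38.0% in the Cadm1 window. The lists do not give the depth of the libraries.

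The sequence at the summits of the members was poorer in CpG and in promoter motifs than that at the other summits. In 200 bases around a summit, the members had 2.03 CpG on average, the other peaks 4.27, and peak-free stretches of the same length in the dense windows 1.64. The median share of G and C was 47.4% in the members, 48.6% in the other peaks and 42.0% in the peak-free stretches, and the masked repeat share was 15.3%, 15.1% and 33.1%. GGGCGG was in 2.58% of the members, 11.2% of the other peaks and 1.76% of the peak-free stretches. Among the other peaks below the top 10% of their library, which are nearer to the members in height, the differences were smaller, with 3.02 to 3.31 CpG and GGGCGG in 6.14% to 7.23%. The ETS motif CCGGAAG was in 0.693%, 3.16% and 0.520%, and a CTCF motif in 0.289%, 1.74% and 0.138%. Below the top 10%, the other peaks held the ETS motif in 1.60% to 1.89% and the CTCF motif in up to 2.14%. For these 3 motifs the share was lower in the members than in the other peaks in 4 of 4 libraries, with differences of −8.64 ± 0.786, −2.46 ± 0.150 and −1.45 ± 0.250 percentage points (SD, n = 4, exact sign-flip p = 0.125 each, or 0.156 after adjustment over the 10 sequence measures). The number of peaks, by which the windows were chosen, is the divisor of these shares. The tests therefore cannot tell fewer peaks with a motif from more peaks without it, and no conclusion is drawn from them.

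Motifs of factors known from T cells were searched in the same way. The RUNX motif TGTGGTT was in 4.35% of the members, 6.04% of the other peaks and 4.66% of the peak-free stretches, and the AP-1 motif TGANTCA in 6.42%, 7.37% and 5.92%. The STAT motif TTCNNNGAA, the kind of site bound downstream of IL-2, was in 5.99%, 6.08% and 7.35%, and the forkhead motif TGTTTAC in 2.66%, 2.70% and 2.84%. The RUNX, AP-1 and STAT shares were lower in the members than in the other peaks in 4 of 4 libraries, with differences of −1.69 ± 0.153, −0.95 ± 0.258 and −0.0973 ± 0.0510 percentage points (SD, n = 4, exact sign-flip p = 0.125 each, or 0.156 after adjustment). The forkhead difference was −0.0352 ± 0.109 points and lower in 3 of 4 libraries (exact sign-flip p = 0.625). These shares have the same divisor as those of the GGGCGG, ETS and CTCF motifs, and no conclusion is drawn from their tests either. Each motif was searched on both strands, a stretch could hold several, and a match is a match of letters only.

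The genotypes were compared in the number of peaks, the measure by which the windows were chosen. The choice required 300 peaks in each library and so left out windows that were low in 1 genotype, and the values of the dense windows are therefore read as a description beside the fit over all windows. Peaks per window, as log2 of the number plus 1 per 100000 peaks of the library, were compared by limma over the 1858 windows with a mean of at least 10 peaks, and 23 of these (1.24%) had a Benjamini-Hochberg adjusted p of at most 0.05, 16 higher and 7 lower in Il2ra mut/mut. Of the 44 dense windows 0 did, with adjusted p-values from 0.0857 to 0.998. At an unadjusted p under 0.05 there were 353 of 1858 windows and 7 of the 44. Leaving out either Il2ra mut/mut library or either WT library left 0 to 2 of the 1858 windows and 0 dense ones. Il2ra mut/mut had more peaks in 17 dense windows and fewer in 27, with a median log2 difference of −0.09 against −0.07 over all windows tested, and differences ran from −0.68 to 0.34 with standard errors of 0.13 to 0.18.

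The 7 dense windows with an unadjusted p under 0.05 were all lower in Il2ra mut/mut, whereas 163 of the 353 in all (46.2%) were. This depended on the settings. With scaling to the median over windows, 3 dense windows had such a p, all lower, and the dense median was −0.02, and when the −log10 q had to reach 3 there were 10, 6 of them higher and 4 lower, with a dense median of 0.05. The largest difference was in chr17:67000001-68000000, the window of Ptprm, a receptor tyrosine phosphatase, with 408 and 497 peaks per 100000 in WT mice and 260 and 301 in the mutant, a log2 difference of −0.68 ± 0.16 (SE, limma, adjusted p = 0.0857). Next were the window of Bnc2, a zinc-finger protein (chr4:84000001-85000000), with 416 and 411 against 292 and 240 (−0.64 ± 0.15, limma, adjusted p = 0.0857), and that of Auts2 (chr5:132000001-133000000), with 491 and 398 against 278 and 316 (−0.58 ± 0.16, limma, adjusted p = 0.135). In each of these 3 windows both WT libraries stood above both Il2ra mut/mut libraries. The windows of Dock1, Plpp3, Sall1 and Mgmt followed, with differences of −0.42, −0.41, −0.39 and −0.35 and limma adjusted p-values of 0.242, 0.225, 0.207 and 0.248. The highest difference was 0.34 ± 0.16 in the window of Tns3, a focal adhesion protein (chr11:8000001-9000000), with 349 and 280 peaks per 100000 in WT against 424 and 371 (limma, adjusted p = 0.304). When the −log10 q had to reach 3, the Ptprm window (−0.59, limma, adjusted p = 0.0384) and the Tns3 window (0.73, adjusted p = 0.00464) passed the threshold. They were 2 of the 44 dense windows, while 104 of all 1745 windows tested passed at that setting, 94 of them higher in Il2ra mut/mut.

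Without regard to size, both Il2ra mut/mut libraries stood above both WT libraries in 5 dense windows (11.4%), against 20% of all windows tested, and both WT libraries stood above in 17 (38.6%), against 34.2%. In the 425 bins of 100 kb with a mean of at least 5 peaks in these windows, the shares were 14.8% and 34.8%, against 18.3% and 30% of all such bins.

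**Figure D5:**
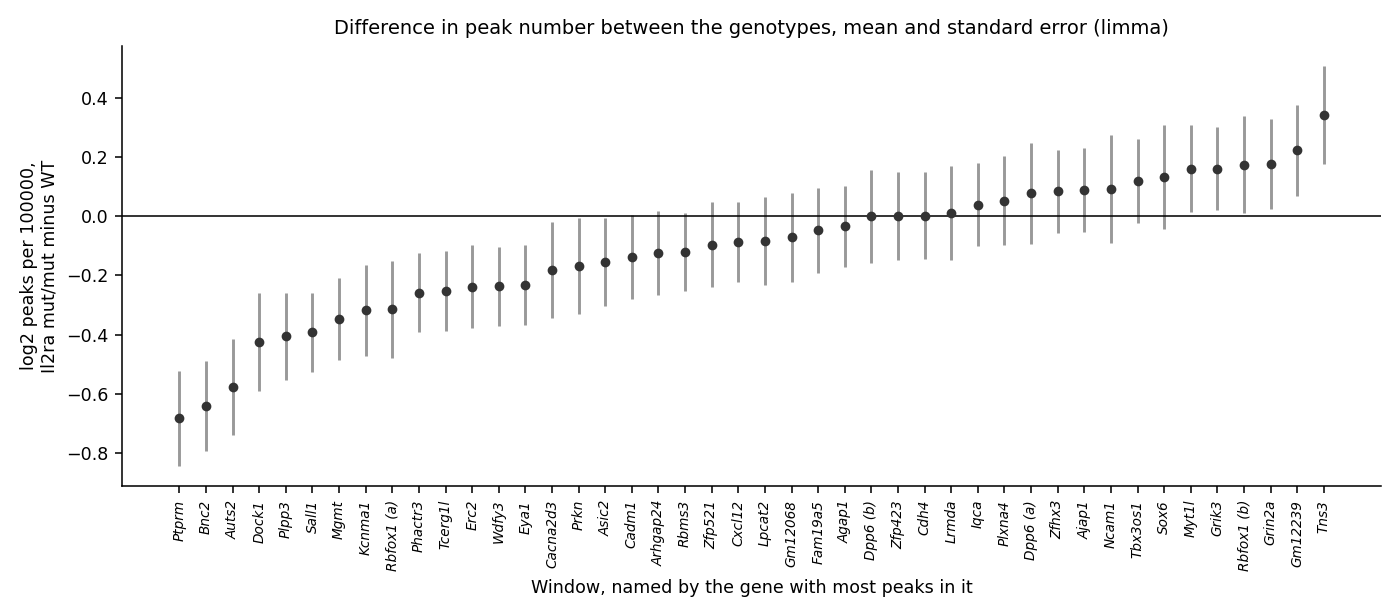
Difference in the number of peaks between Il2ra mut/mut and WT (vertical axis, log2 of peaks per 100000) in each of the 44 dense windows, in order of the difference and named as in the plot of counts by window, with the standard error from limma. The values run from −0.68 (Ptprm) to 0.34 (Tns3), and none passed an adjusted p of 0.05.

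The height of the peaks was compared in the same way. The median log2 fold enrichment of a window, relative to the median of its library, was compared by limma over the same 1858 windows, and 0 of them passed (0%), while 107 had an unadjusted p under 0.05, 0 of them dense. In the dense windows the difference lay between −0.07 and 0.10 on the log2 scale. The difference in the mean percentile of the fold enrichment, Il2ra mut/mut minus WT, had a median of 2.40 points in the dense windows (−1.54 to 9.59). Over all windows its median was also above 0, at 1.02 points. The lowest limma adjusted p of a dense window was 0.555. Medians move in steps of 1 read, and in 35 of the 44 windows the WT libraries had the same centred median. When the −log10 q had to reach 3, 3 dense windows passed, all higher in Il2ra mut/mut. Over all 1745 windows tested at that setting 48 passed, 43 of them higher. Without the mutant replicate 2, the median log2 difference of the dense windows was −0.14, against −0.05 over all windows. Without the mutant replicate 1 it was 0, against −0.02. Without WT replicate 1 it was −0.07, against −0.07, and without WT replicate 2 it was −0.07, against 0.01. Each of these fits left 1 library in a genotype. The lowest −log10 q listed was 1.40, 1.47, 1.70 and 1.30, and its part in these values was not tested.

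Summed over all 44 windows, the genotypes were set side by side. The share within 1 kb of a TSS was 2.79% in both genotypes, the median gap averaged 1262 bp for WT and 1260 bp for Il2ra mut/mut, and the share overlapped in every library was 20.2% and 19.9%. The mean percentile averaged 40.6 for WT and 43.5 for Il2ra mut/mut, whose libraries were both higher, and an exact permutation test of the 4 libraries gave p = 0.333, the smallest that 2 against 2 allow.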

How the data were processed

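The deposited lists of narrow peaks, 1 for each of the 4 libraries, were used. The authors trimmed the reads (Trim Galore 0.3.7; versions from the submitters' processing notes), mapped them to mm10 with BWA mem (0.7.13), removed duplicates (Picard 1.92, SAMtools 0.1.19) and mitochondrial reads, kept concordant pairs, shifted the reads and called peaks in each library with MACS2 (2.1.0). For its own sets of open regions, the paper then kept the peaks that were reproducible among the biological replicates. The lists used here, of 112569 to 142732 peaks each, also hold peaks that the other replicate lacks. Their members are thus not the open regions that the paper counted. The deposited columns hold the authors' fold enrichment at the summit (a ratio to the background), a score, and the p and q values on the −log10 scale. Read totals are not given in the sources used here, so depth is unknown.

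The members, the gene lists and the tests were chosen with earlier results of these data known. Peaks were placed by GENCODE M21 on GRCm38 (promoter within 1 kb of a TSS, then exon, intron, intergenic), overlaps needed 1 bp, and percentiles of the fold enrichment were taken within a library. Windows with a mean of at least 10 peaks were compared by limma (3.58.1, R 4.3.3, trend) on log2 of the number plus 1 per 100000 peaks, after a test on simulated data; p-values measure the spread between these libraries. Shares over the libraries were compared by an exact sign-flip test, with Python 3.11.15, numpy 2.4.6, pandas 2.3.3, scipy 1.17.1 and matplotlib 3.10.9. The text names, by rule, the 12 windows with the highest lowest count in full, their 3 genes with most peaks, fullest and emptiest 100 kb bins and leading region, the windows at the threshold, and list genes; others are given by ranges. Alternatives were other thresholds, placements, filters, scalings and a replicate block, and leaving out each library.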

Additional observations from a re-analysis of the deposited data

Results flagged for a closer look

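Signal lay outside the chromosomes used for the windows. Chromosome X had between 1046 and 1291 peaks per library, and its fullest window had 48 to 56, so that no window there came near 300. Unplaced scaffolds had between 317 and 349 peaks per library. There are no control libraries to set these values against, and they enter no comparison.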

How the results depend on the processing

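Of the alternatives tried, those that placed peaks by their summit, shifted the windows by 500 kb, used distinct intervals or left out a library gave 35 to 48 dense windows. A threshold of 250 peaks gave 56 windows and one of 400 gave 17. Fewer peaks entered when the −log10 q had to reach 3 (the stricter q), which gave 6 windows, and with equal numbers of peaks per library, which gave 26. The windows called between genotypes by limma on peak number, 23 of 1858, became 104 of 1745 with the stricter q, 40 of 1822 with equal numbers, 0 to 2 when a library was left out (the lone library of a genotype is then assumed to vary like the others), and 26 when scaled to the median over windows, of which 21 were higher in Il2ra mut/mut (80.8%, against 69.6%). With the replicate number as a block, 132 windows were called on peak number, 2 of them dense (Ptprm and Bnc2), and 22 on fold enrichment. The number is only a name here, as deviations of same-numbered libraries correlated at 0.0334. Fold enrichment calls, 0 in all windows, became 48 with the stricter q and 0 to 425 when a library was left out. The dense-minus-rest difference in the median gap was −3889 bp and became −6210 bp with the stricter q. That in the share called in every library was −12.6 points and became −19.9 with the 50% overlap and −27.5 with the stricter q. The median percentile difference was −4.11 and ranged from −5.49 to 0 when a library was left out. The cause of these changes was not tested. Means of the percentile and the top 10% share were added after the data were seen. Depth is unknown, which limits every count of peaks.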
